A study of Mus musculus with 4 samples.

Results

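Cxcr3 and the genes of its ligands, Cxcl9, Cxcl10 and Cxcl11, were followed in MC38 tumors profiled by Visium spatial transcriptomics. The members were taken by gene symbol, and 3 of the 4 (Cxcl9, Cxcl10 and Cxcr3) had a row among the 32285 genes counted. Cxcl11 had none and was not analysed here. The study placed MC38 tumors in F1 mice whose strains differ in their response to PD-1 blockade, and the spatial sections asked how the tumor immune microenvironment (TIME) differed between an eventual responder, CC075F1, and a non-responder, CC080F1, before any checkpoint inhibitor was given. MC38 is a colon adenocarcinoma line of C57BL/6 origin, so every tumor carried cells of the same line. CC075F1 hosts were C57BL/6J x CC075/UncJ crosses and CC080F1 hosts were C57BL/6J x CC080/TauUncJ crosses, where CC denotes the Collaborative Cross panel of recombinant inbred mice. All hosts were female, 8 to 12 weeks old, and were injected with MC38 cells under the skin. At a tumor volume of 75 to 110 mm3 each was given 1 intraperitoneal dose of 200 µg of the isotype control antibody 2A3, and tumors were collected 48 hours later. There were 2 sections per strain, from separate tumors by their labels, and no section from an animal treated with anti-PD-1. A Visium spot is a small disc of tissue that can hold several cells, and the counts are unique molecular identifiers (UMIs), each standing for 1 captured transcript.

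CXCR3 is a chemokine receptor carried mainly by activated and effector T cells and by natural killer (NK) cells. Its ligands are secreted chemokines that draw these cells along a gradient. Cxcl9 is induced chiefly by interferon-gamma, typically in macrophages and dendritic cells. Cxcl10 is induced by interferon-gamma, by type I interferon and through NF-kappaB, in a wider range of cells including tumor cells. Cxcl11 is the third ligand of the receptor. In the GENCODE annotation of C57BL/6J it is a polymorphic pseudogene.

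The ligand genes lie side by side on the minus strand of chromosome 5 (GRCm38). Cxcl9 (ENSMUSG00000029417) spans chr5:92321347-92328079, Cxcl10 (ENSMUSG00000034855) spans chr5:92346638-92348889 and Cxcl11 (ENSMUSG00000060183) spans chr5:92359544-92365485. Cxcl9 and Cxcl10 are separated by 18558 bases, and Cxcl10 and Cxcl11 by 10654. Cxcl10 lies within the span of Art3, a gene of the opposite strand, while no other gene overlaps Cxcl9. Cxcr3 (ENSMUSG00000050232) lies on the minus strand at chrX:101731535-101734269 and has 2 exons.

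The 250 bases before the start of Cxcl9 and of Cxcl10 are shown, from RefSeq promoters of GRCm38.p6, written 5′ to 3′ on the minus strand. These are reference sequences, and alleles of the host strains were not examined. A promoter was given for 3 of the 4 members. Capitals mark matches to letters searched on both strands, GAAANNGAAA for the interferon-stimulated response element (ISRE), TTCNNNGAA for the gamma-activated site (GAS) and GGGNNTTCC for NF-kappaB.
Cxcl9, chr5:92328080-92328329: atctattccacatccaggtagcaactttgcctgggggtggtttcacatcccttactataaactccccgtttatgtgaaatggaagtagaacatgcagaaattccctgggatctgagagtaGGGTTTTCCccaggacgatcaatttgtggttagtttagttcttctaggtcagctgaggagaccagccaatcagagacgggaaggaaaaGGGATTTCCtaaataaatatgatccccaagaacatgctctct
Cxcl10, chr5:92348890-92349139: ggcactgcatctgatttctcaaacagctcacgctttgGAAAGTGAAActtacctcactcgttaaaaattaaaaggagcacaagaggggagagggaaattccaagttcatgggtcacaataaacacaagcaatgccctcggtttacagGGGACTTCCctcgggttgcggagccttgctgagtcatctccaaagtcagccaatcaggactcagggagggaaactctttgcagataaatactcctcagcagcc
The Cxcl9 window held 2 NF-kappaB matches, GGGTTTTCC and GGGATTTCC, and no ISRE match. The Cxcl10 window held 1 ISRE match, GAAAGTGAAA, 213 to 204 bases before the start, and 1 NF-kappaB match, GGGACTTCC. None of these matches overlapped another. Neither window held a GAS match, and the Cxcr3 window held none of the 3 motifs. Of 32817 promoter windows of this length, 2.97% held the ISRE letters, 7.01% the GAS letters and 4.97% the NF-kappaB letters. The NF-kappaB counts hold for the letters searched alone. The stretch gggaaattcc of the Cxcl10 window, with a longer gap between GGG and TTCC, was outside them and is not marked. A match is a match of letters and was not tested as a binding site.

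The 4 sections held 2710 to 3276 spots under tissue and 82594649 to 146460975 UMIs, with a median of 31139 to 41740 UMIs per spot. Edge spots had a lower median depth than interior spots in each of the 4 sections (18032 to 30120 against 33592 to 46146 UMIs). Skin, muscle and fat markers exceeded 1% of the UMIs in 25 spots of CC075F1 replicate 2, in 1 of CC080F1 replicate 2 and in none elsewhere. In a list of MC38 and carcinoma markers, Shisal2b gave 123 to 267 of the summed 124 to 270 CPM, epithelial markers were near 0, and Cdx2 was at 0 in CC080F1 replicate 1. Of 3994 spot barcodes, 1666 occurred in all 4 sections, since the slides share a list of spot barcodes. In bulk sums and in spots alike, fewer cells of a type and less RNA per cell cannot be told apart. Replicates here are separate tumors, and spots of a section were never treated as replicates. With 2 sections against 2, the smallest two-sided exact permutation p is 0.333, so no test on section values could reach 0.05. Intervals on shares of spots are exact Clopper-Pearson 95% intervals and cover counting error only.

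Cxcl9 separated the strains, while Cxcl10 and the receptor did not. The Cxcl9 level was 315 and 301 UMIs per 1000000 UMIs of the section (CPM) in the CC075F1 sections against 49.3 and 118 in the CC080F1 sections. The means were 308 ± 9.52 and 83.9 ± 48.9 CPM (SD, n = 2 each), a ratio of 3.67. Every CC075F1 section was above every CC080F1 section (exact permutation p = 0.333, the smallest possible), and the CC080F1 sections differed from each other by more than the CC075F1 sections did. Cxcl10 stood at 296 and 237 CPM in CC075F1 and at 193 and 309 CPM in CC080F1. Its groups overlapped, with means of 266 ± 41.9 and 251 ± 81.6 CPM (SD, n = 2 each). Cxcr3 was far scarcer, at 0.787 and 1.34 CPM in CC075F1 and 0.769 and 1.21 CPM in CC080F1, and its groups overlapped too. These receptor levels rested on 65, 196, 72 and 136 UMIs in CC075F1 replicates 1 and 2 and CC080F1 replicates 1 and 2. Replicate 2 had more Cxcr3 than replicate 1 within each strain.

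**Figure D1:**
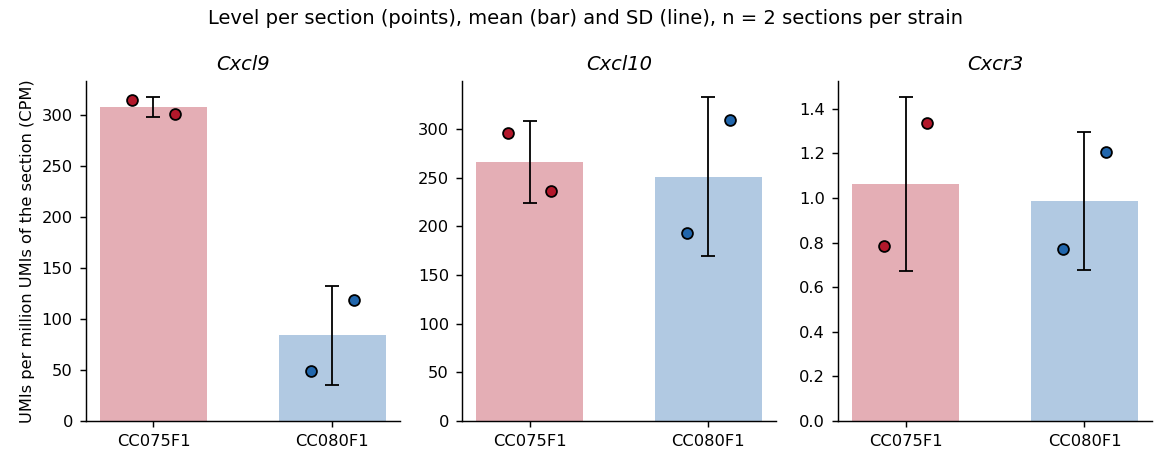
CPM for Cxcl9, Cxcl10 and Cxcr3 (vertical axes, each from 0) by strain. Points are sections, bars are means and lines are the SD of 2 sections; the Cxcl9 points of CC075F1, 315 and 301 CPM, lie above those of CC080F1, 49.3 and 118 CPM, and the points of the other genes overlap.

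In edgeR's quasi-likelihood fit to the summed sections, 0 of the 3 members passed an adjusted p of 0.05, where 14 of 15572 genes tested, or 0.0899%, did. For Cxcl9 the log2 fold change of CC075F1 over CC080F1 was 2.18 (SE 0.47, edgeR adjusted p = 0.332, unadjusted p = 0.00213), and it was the only member with an unadjusted p under 0.05. Cxcl10 stood at 0.38 (SE 0.32, edgeR adjusted p = 0.832). That of Cxcr3 was 0.50 (SE 0.54, edgeR adjusted p = 0.851). The Cxcl9 call depended on the test, since DESeq2's Wald test gave an adjusted p of 7.33e-05 and limma-voom one of 0.327. It also depended on a section, since without CC080F1 replicate 2 the log2 fold change was 3.05 (edgeR adjusted p = 0.000734). The Cxcr3 value turned to -0.29 without CC075F1 replicate 2 (edgeR adjusted p = 1).

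The strains also differed in how many spots held Cxcl9. At least 1 Cxcl9 UMI was found in 96.9% (interval 96.2 to 97.5) and 96.5% (95.8 to 97.1) of CC075F1 spots. In CC080F1 the shares were 60.1% (58.3 to 62.0) and 75.1% (73.6 to 76.6). The groups did not overlap (exact permutation p = 0.333, the smallest possible). With each spot thinned to 5000 UMIs, the means were 66.6% ± 4.63 and 27.8% ± 11.3 (SD, n = 2 each), so the order held at equal depth. Cxcl10 was detected almost everywhere, in 96.3% and 96.1% of CC075F1 spots and in 95.9% and 94.7% of CC080F1 spots. Within positive spots the median count of Cxcl9 was 7 and 8 UMIs in CC075F1 against 2 and 3 in CC080F1, and Cxcl10 had 7 in either section of CC075F1 against 5 and 7 in CC080F1. The richest single spot held 162 Cxcl9 UMIs in CC075F1 replicate 2, and 119 in CC080F1 replicate 2. Cxcl9 counts of CC080F1 were more uneven among spots, with an overdispersion (variance beyond counting noise, relative to the squared expected count) of 1.96 ± 0.140 against 0.922 ± 0.345 in CC075F1 (SD, n = 2 each; exact permutation p = 0.333).

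Cxcr3 was detected in 63 of 2710 and 186 of 3276 spots of CC075F1, or 2.32% (interval 1.79 to 2.96) and 5.68% (4.91 to 6.53). In CC080F1 it was detected in 67 of 2787 and 129 of 3174 spots, or 2.40% (1.87 to 3.04) and 4.06% (3.40 to 4.81). The strains overlapped, and nearly all positive spots held a single Cxcr3 UMI, with 2 or more in only 2, 9, 5 and 7 spots in that order of sections. At this depth most spots with a Cxcr3-expressing cell may hold no Cxcr3 UMI, so a spot without one is called Cxcr3-free here only in that sense.

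The balance between the ligands was then taken within each section, where depth cancels. UMIs are captured at the 3′ end, 1 per transcript, so counts were not divided by gene length. Cxcl9 made up 51.6% and 56.0% of the summed Cxcl9 and Cxcl10 UMIs in CC075F1 and 20.3% and 27.7% in CC080F1. The means were 53.8% ± 3.16 and 24.0% ± 5.23 (SD, n = 2 each), and the groups did not overlap (exact permutation p = 0.333, the smallest possible). Cxcl9 UMIs per Cxcl10 UMI came to 1.06 and 1.27 in CC075F1 and to 0.255 and 0.384 in CC080F1. CC075F1 tumors thus held the ligands at nearly equal counts, and CC080F1 tumors held mostly Cxcl10. Both ligands were found together in 94.3% and 93.1% of CC075F1 spots and in 58.3% and 72.2% of CC080F1 spots. Spots with Cxcl10 but no Cxcl9 were 2.03% and 3.02% of CC075F1 spots and 37.6% and 22.5% of CC080F1 spots. The converse, Cxcl9 without Cxcl10, was rare in either strain, at 1.87% to 3.39% of spots.

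**Figure D2:**
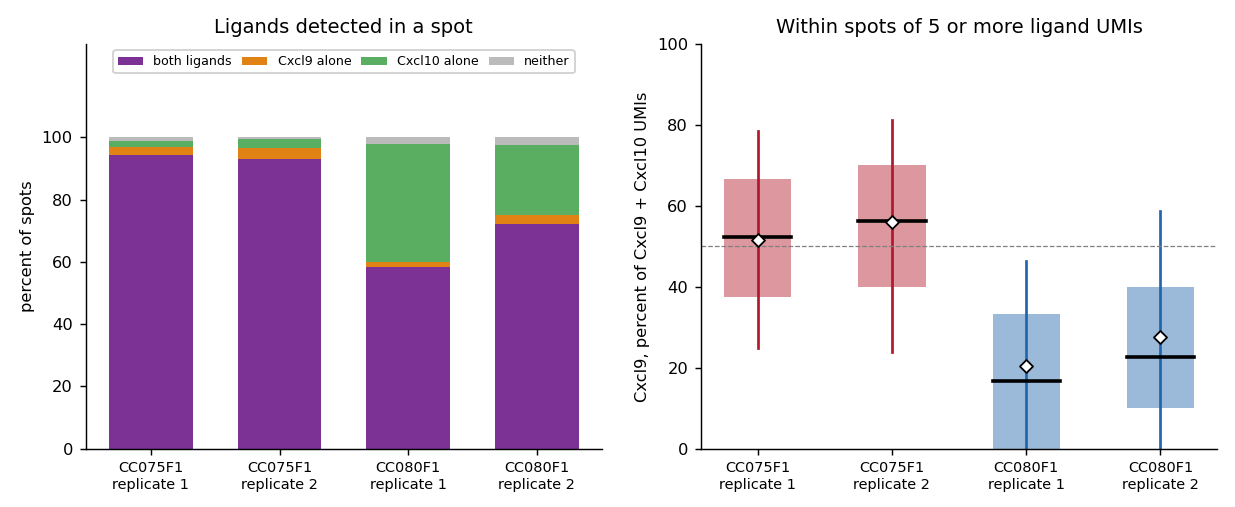
Left, percent of spots with both ligands, Cxcl9 alone, Cxcl10 alone or neither, by section. Right, Cxcl9 as percent of Cxcl9 plus Cxcl10 UMIs in single spots with 5 or more ligand UMIs (box, quartiles; thick line, median; thin line, 10th to 90th percentile) with the share over the summed UMIs of the section as a diamond; medians were 52.4 and 56.2 percent in CC075F1 and 16.7 and 22.7 percent in CC080F1.

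The shift ran through the spots and was not carried by a few of them. Among spots with 5 or more ligand UMIs (2473, 2931, 1745 and 2387 spots), the median Cxcl9 share of a spot was 52.4% and 56.2% in CC075F1 against 16.7% and 22.7% in CC080F1. Cxcl10 outnumbered Cxcl9 in 41.8% and 37.0% of these spots in CC075F1 and in 90.5% and 82.4% in CC080F1. The upper quartile of CC080F1 spots, at 33.3% and 40%, came near the lower quartile of CC075F1 spots, at 37.5% and 40%. The strain difference in the Cxcl9 share was 29.8 percentage points over all spots, 33.2 in edge spots alone and 28.4 in interior spots alone.

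Within a section the ligands were nonetheless high in the same spots. Spots of 10000 UMIs or more were cut into 4 sets of equal size by their Cxcl9 level (where a cut fell among spots without Cxcl9, these were split in the order of the files), and from the lowest to the highest set Cxcl10 went from 197 to 467 and from 115 to 474 CPM in CC075F1 replicates 1 and 2. In CC080F1 it went from 147 to 307 and from 178 to 527 CPM. The top set thus held 2.09 to 4.11 times the Cxcl10 of the bottom set, in 4 of 4 sections. Over 10 strata of spot depth, the Mantel-Haenszel odds ratio of finding both ligands in a spot was 4.26 and 3.21 in CC075F1 and 1.79 and 1.65 in CC080F1. The mean log2 odds ratios were 1.89 ± 0.289 and 0.78 ± 0.0830 (SD, n = 2 each; exact permutation p = 0.333, the smallest possible). The gap depended on the settings. With 2 or more UMIs of each ligand the odds ratios of CC075F1 were 3.71 and 2.97, against 2.46 and 2.55 for CC080F1, and with 20 depth strata 2.53 and 2.32 against 1.69 and 1.55.

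The genes whose spot levels most resembled each member were listed by the mean Pearson r over the 4 sections, among 11149 genes, as a description, since spots of a section share tissue and depth. For Cxcl9 they were Gbp2 (0.51), AW112010 (0.51), Ly6a (0.49), Cd74 (0.49) and H2-Ab1 (0.49). Gbp2 encodes an interferon-induced GTPase, and Cd74 and H2-Ab1 belong to MHC class II antigen presentation. Those of Cxcl10 were Igtp (0.43), Iigp1 (0.43), Cxcl9 itself (0.41) and Isg15 (0.40). Igtp and Iigp1 are interferon-induced GTPases, and Isg15 is a ubiquitin-like interferon-induced protein. Cxcl10 ranked 13 for Cxcl9, and the correlation of the ligands ran from 0.34 to 0.55 over the sections. For Cxcr3 all values were low, with Gpx3 first at a mean r of 0.09, then H2-Ab1 (0.09), Cd74 (0.08), Col1a2 (0.08) and H2-Eb1 (0.07). Only 2.32% to 5.68% of the spots of a section held a Cxcr3 UMI, nearly always a single one. Counts this sparse hold any r low, so these values do not tell how closely the receptor followed other genes.

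The other genes of the pathway were read from lists of inducers, of a peptidase and a scavenger receptor under the name ligand removal, and of likely source and target cells. Of the 16 ligand-inducing genes, 0 passed between the strains in edgeR (3 had an unadjusted p under 0.05, as did 846 of all 15572 genes), and their median log2 fold change was 0.07 against -0.02 over all genes. Among the larger differences were those of Ifng, the interferon-gamma gene (2.06, SE 0.46, edgeR adjusted p = 0.348), Tnf (0.66) and Ifnb1 (0.55). Ifng itself was low, at 2.57 and 2.29 CPM in CC075F1 and 0.492 and 0.941 CPM in CC080F1. Neither gene of the ligand removal list passed, the peptidase gene Dpp4 (-0.60) or the scavenger receptor gene Ackr3 (0.23). Removal of the ligands themselves was not measured. Of the other CXC chemokines and receptors 0 of 13 tested passed (6 had an unadjusted p under 0.05), 5 were positive and the median was -0.23, with the largest values for Cxcl13 (8.38), a B cell attractant, Cxcr6 (2.32), Cxcl1 (-1.91) and Ppbp (1.52).

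Markers of the cells that may carry or make these proteins were read in the same fit. Of 15 T and NK cell markers, 1 passed, Cd3g (2.42, SE 0.27, edgeR adjusted p = 0.0491), 14 were higher in CC075F1, and the list's median log2 fold change was 1.59. Next to it stood Cd8a (2.70, edgeR adjusted p = 0.0778), Cd8b1 (2.60) and Nkg7 (2.27). Their summed level was 125 to 133 CPM in CC075F1 and 38.6 to 67.4 CPM in CC080F1, with no marker at 0. Of 12 macrophage and monocyte markers, 0 passed in edgeR (4 had an unadjusted p under 0.05) and the median was 0.53, led by C1qb (1.01), C1qc (0.91), Lyz2 (0.87) and C1qa (0.82). Their summed level was 4902 to 6506 CPM in CC075F1 and 4040 to 4256 CPM in CC080F1, again with no marker at 0. Of 8 dendritic cell markers 0 passed (4 with an unadjusted p under 0.05) and 3 were positive, with a median of -0.29. Their summed level was lower in CC075F1, at 96.1 to 186 against 187 to 245 CPM. Most of that sum was Fscn1, at 165 and 81.3 CPM in CC075F1 and 230 and 170 CPM in CC080F1. Single log2 fold changes were -2.26 for Cd209a, 1.86 for Xcr1, 1.57 for Clec9a and 1.52 for Batf3. Markers of skeletal muscle, at 5.22 to 137 CPM in CC075F1 and 3.81 to 15.1 CPM in CC080F1, overlapped between strains. Markers of fat were lower in CC075F1 (29.6 to 30.2 against 49.1 to 65.1 CPM), as were those of endothelial cells (45.3 to 60.4 against 75.2 to 111 CPM), and those of B cells were higher (5.18 to 21.4 against 2.89 to 3.31 CPM). The fat sum was mostly Fabp4, at 29.7 and 29.0 CPM in CC075F1 and 60.5 and 43.3 CPM in CC080F1. Of the B cell sum of 21.4 CPM in CC075F1 replicate 2, Igkc alone gave 16.5 CPM. The part of these cells in the member levels was not tested. Leaving out shallow spots (under 10000 UMIs) and those with skin, muscle or fat, the Cxcl9 log2 fold change was 2.19, as large as over all spots. Most of the spots left out were shallow ones.

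Relative to macrophage and monocyte markers, Cxcl9 was higher in both CC075F1 sections than in either CC080F1 section. The list holds no dendritic cell markers, and a ratio to it does not tell cell number from level per cell. Cxcl9 UMIs per 1000 UMIs of that list came to 48.4 and 61.5 in CC075F1, but 12.2 and 27.8 in CC080F1, means of 54.9 ± 9.25 and 20 ± 11.0 (SD, n = 2 each; exact permutation p = 0.333, the smallest possible). Per 1000 UMIs of Adgre1 and Cd68 alone the ratio of the strain means was 3.51, against 2.74 for the whole list. Cxcl10 per 1000 UMIs of the list overlapped, at 45.5 and 48.3 in CC075F1 and 47.9 and 72.6 in CC080F1. Cxcr3 stood the other way against markers of its carriers, with 5.93 and 10.7 UMIs per 1000 T and NK cell UMIs in CC075F1 and 20 and 17.9 in CC080F1. The means of 8.31 ± 3.37 and 18.9 ± 1.44 (SD, n = 2 each) did not overlap (exact permutation p = 0.333, the smallest possible). CC075F1 sections thus held 2.43 times the T and NK cell marker level of CC080F1 at overlapping Cxcr3 levels.

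Placement was read from the distance of each spot to the nearest position off tissue, in steps of the spot grid, and spots within 3 steps were called edge spots. Where tissue ran to the rim of the capture grid (1 to 25 spots of a CC075F1 section and 58 to 75 of a CC080F1 section), the rim itself was not taken as an edge. Cxcl9 was highest in the outer parts of the CC075F1 tumors. At the edge it stood at 479 and 417 CPM in CC075F1 against 289 and 284 CPM in the interior, and in CC080F1 at 41.5 and 111 CPM against 52.5 and 120 CPM. The edge was the higher in both CC075F1 sections, 1.66 and 1.47 times the interior, and the lower in both CC080F1 sections, at 0.791 and 0.930 times. With an edge of 5 steps CC075F1 had 1.84 and 1.71 times, CC080F1 replicate 1 had 0.883 times, and CC080F1 replicate 2 turned to 1.17 times. Cxcl10 at the edge was 1.12 and 1.38 times the interior in CC075F1, and 1.13 and 0.663 times in CC080F1, so the strains overlapped. Cxcr3 had ratios of 0.648 and 2.29 in CC075F1, with 0.876 and 1.56 in CC080F1, with 6, 50, 19 and 31 UMIs at the edge. The receptor was higher at the edge in replicate 2 of each strain and not in replicate 1.

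Going inward, Cxcl9 of CC075F1 replicate 1 went from 479 CPM at 1 to 3 steps through 364 at 7 to 9 and 208 at 13 to 15 to 154 at 16 or more steps. In CC075F1 replicate 2 it went from 417 CPM through 454 at 4 to 6 steps to 182 at 16 or more. CC080F1 replicate 1 ran the other way, from 41.5 at the edge to 60.3 CPM at 13 to 15 steps, and its deepest band, with only 9 spots, was left aside. CC080F1 replicate 2 peaked at 165 CPM at 4 to 6 steps and then stayed between 94.9 and 129. The Cxcl9 share of ligand UMIs was lower in the deepest band than at the edge of the CC075F1 tumors, at 40.7% against 59.6% and 47.9% against 57.3%. In CC080F1 replicate 1 it went from 16.5% at the edge to 25.4% at 10 to 12 steps, and in replicate 2 from 34% to 23.9%. Cxcl10 of CC080F1 replicate 2 was lowest at the edge, at 216 CPM, and 306 to 343 CPM in every band further in.

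**Figure D3:**
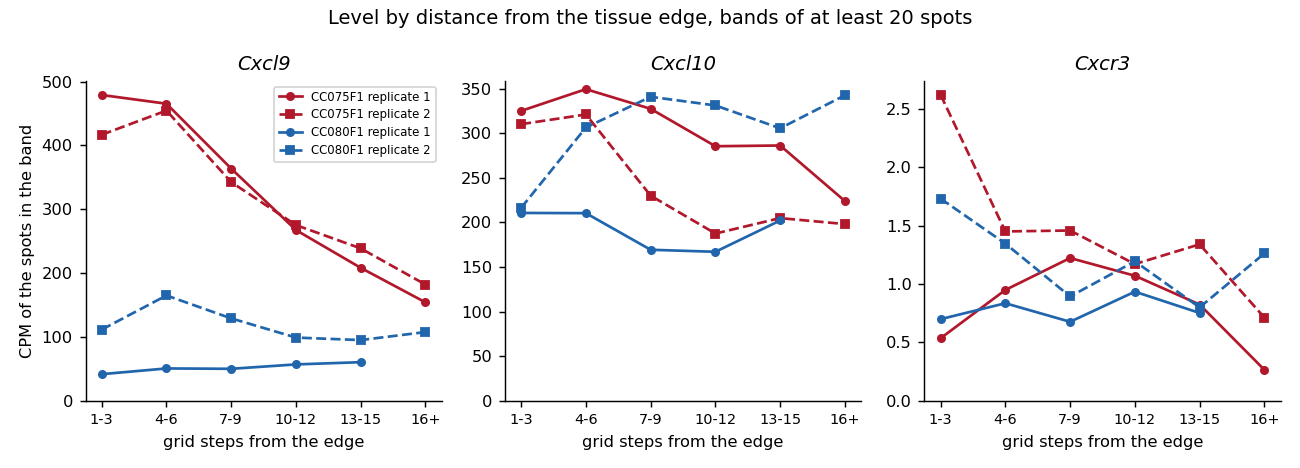
CPM of Cxcl9, Cxcl10 and Cxcr3 (vertical axes, each from 0) in bands of distance from the tissue edge, in grid steps, for each section; bands of fewer than 20 spots are not drawn. Cxcl9 of the CC075F1 sections is lowest at 16 or more steps, at 154 and 182 CPM, while the CC080F1 lines stay between 41.5 and 165 CPM.

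Over the 4 sections together, 0 of the 3 members passed in the edgeR test of edge against interior, where 770 of 15089 genes, or 5.10%, did (642 higher and 128 lower, or 802 and 41 when scaled by library size alone), and 0 members had an unadjusted p under 0.05. The log2 fold changes were 0.14 for Cxcl9 (SE 0.08, edgeR adjusted p = 0.319), -0.02 for Cxcl10 (SE 0.10, 0.939) and 0.35 for Cxcr3 (SE 0.29, 0.533). With an edge of 5 steps the Cxcl9 value was 0.36 and passed (edgeR adjusted p = 0.0427). Without CC075F1 replicate 1 and without CC080F1 replicate 2 it was 0.05 and 0.07, and without CC075F1 replicate 2 that of Cxcr3 was -0.21. The Cxcl10 value ran from -0.21 without CC080F1 replicate 1 to 0.16 without CC080F1 replicate 2. Several relatives of the ligands were edge genes, and 5 of 13 other CXC chemokines and receptors rose there, Cxcl3 (3.92), Cxcl5 (3.59), Cxcl12 (1.84), Ppbp (1.62) and Cxcl2 (1.22), which bind receptors other than CXCR3. Of the other lists, Irf9 (0.25) rose among 15 inducers tested, with Ifnar1 at 0.17, Ifngr2 at 0.12 and Ifng at 0.09, and Dpp4 (1.38), whose product trims the ligands, rose beside Ackr3 at 0.23. Il2rb (0.39) rose among T and NK cell markers, with Cd4 at 1.21, Cd3e at 0.47 and Trac at 0.38. Ly6c2 (0.84) and Ccr2 (0.31), monocyte genes, rose, with Adgre1 at -0.14 and Cd68 at -0.12, and so did the dendritic cell genes Flt3 (2.06) and Ccr7 (1.44), with Cd209a at 1.63 and Xcr1 at 0.39. Markers of fibroblasts (4 of 5), endothelial cells (4 of 4) and neutrophils (3 of 4) rose at the edge as well. So did those of skeletal muscle (2 of 5) and fat (2 of 5). Of 6 MC38 and carcinoma markers tested, 4 rose and 5 had a positive value. Shisal2b gave nearly all of that list's CPM and its other genes were near 0, so this count says little of where tumor cells lay. The part of all these cells in the members' placement was not tested.

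The difference of the edge effect between the strains was tested in the same fit. The term was 0.70 for Cxcl9 (SE 0.15, edgeR adjusted p = 0.163, unadjusted p = 0.00128), 0.36 for Cxcl10 (SE 0.21, 0.685) and 0.15 for Cxcr3 (SE 0.58, 0.969). Thus 0 of 3 members passed, where 16 of 15089 genes, or 0.106%, did, and Cxcl9 alone had an unadjusted p under 0.05. DESeq2 gave Cxcl9 0.72 with an adjusted p of 0.00455. Without CC080F1 replicate 2 the Cxcl9 term was 0.85 and passed (edgeR adjusted p = 0.000861), and without CC080F1 replicate 1 the Cxcl10 term was 0.73 and passed (edgeR adjusted p = 0.0464). None of the pathway lists had a gene past the threshold in edgeR, and 0 to 3 genes of each had an unadjusted p under 0.05. Among the larger terms were Ifng 0.83, Irf1 0.45 and Stat2 0.38 among the inducers, Dpp4 -0.85 and Ackr3 -0.33 among ligand removal, and Tbx21 1.06, Cd4 0.91, Ncr1 0.90 and Il2rb 0.58 among T and NK cell genes. Among macrophage genes they were Csf1r 0.36, C1qa 0.34, Itgam -0.32 and C1qc 0.31, among dendritic cell genes Flt3 1.94, Cd209a 1.79, Xcr1 1.53 and Clec9a 1.13, and among CXC genes Cxcl2 -2.43, Cxcl1 -1.68, Cxcl5 1.39 and Cxcl12 1.21. Of 5 skeletal muscle genes, 2 passed. Without shallow spots and those of skin, muscle or fat the Cxcl9 term was 0.74. That filter removed mainly shallow spots, since only 25 spots of CC075F1 replicate 2 and 1 of CC080F1 replicate 2 exceeded the skin, muscle and fat mark. The part of muscle in the Cxcl9 term was not tested.

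On the maps of the sections, the brightest Cxcl9 ground of CC075F1 replicate 2 was a field at one side of the tumor, which also held many of its Cxcr3 spots. Moran's I, which is near 0 for a value scattered at random over the grid and rises with clustering, was 0.286 and 0.400 for Cxcl9 in CC075F1 and 0.223 and 0.372 in CC080F1. It was 0.267 and 0.239, and 0.237 and 0.236, for Cxcl10. For Cxcr3 it was low, at 0.0340 and 0.0331 in CC075F1 and 0.00529 and 0.0103 in CC080F1. Its sparse counts hold the value low, so it does not tell whether cells with the receptor were clustered.

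**Figure D4:**
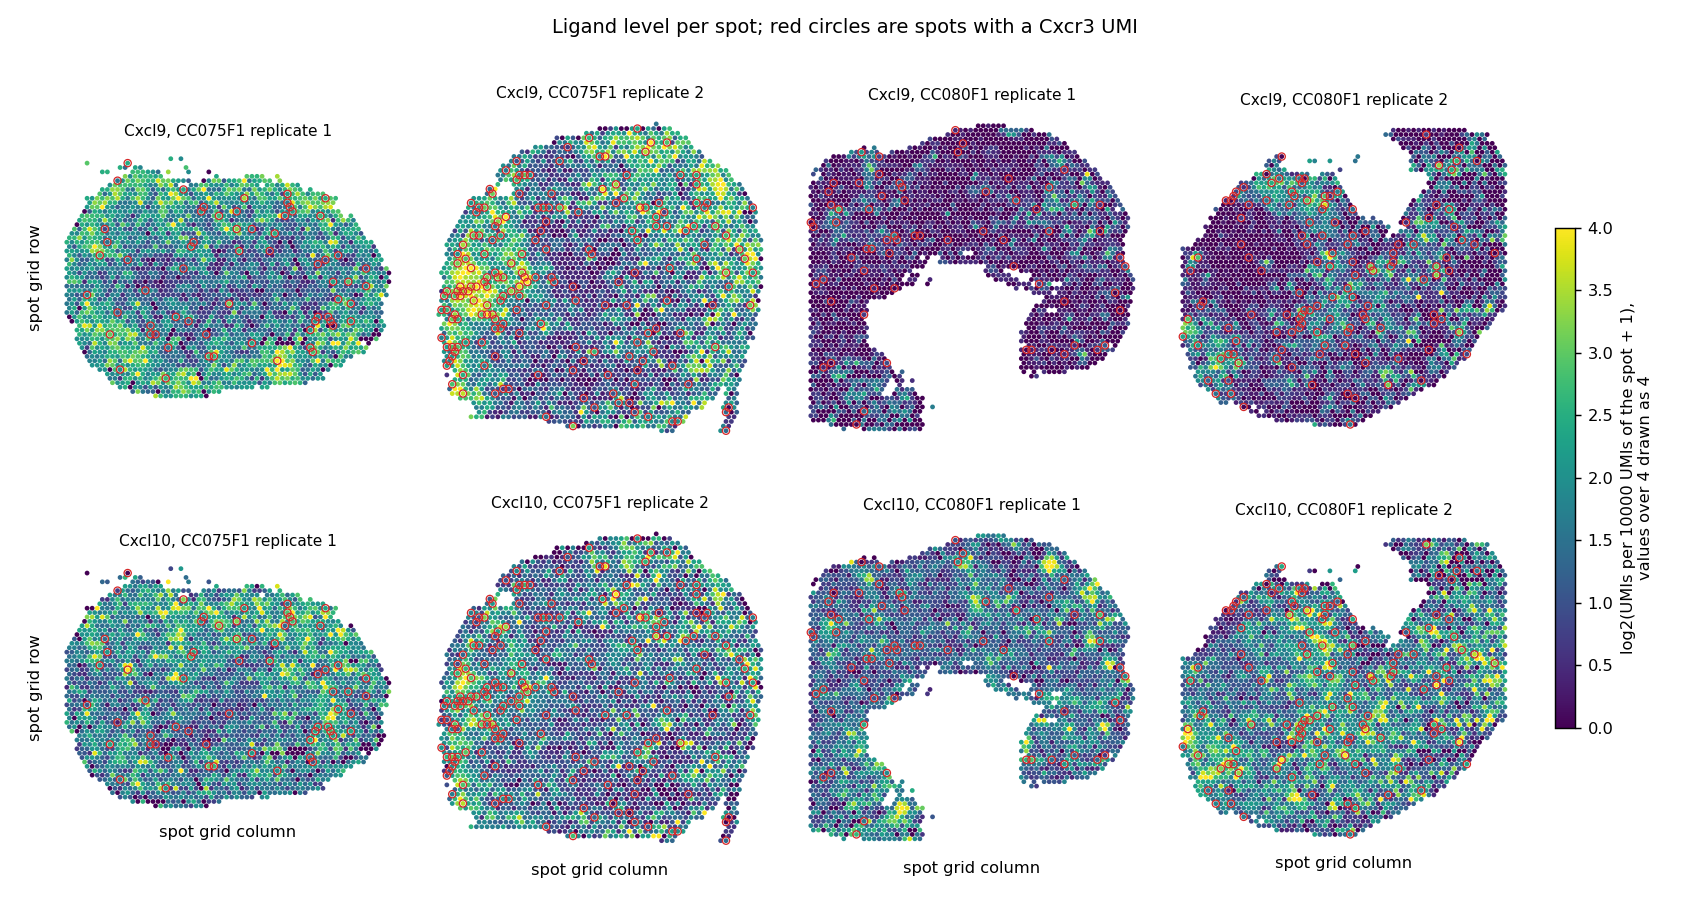
Each spot of the 4 sections at its place on the grid, coloured by log2(UMIs per 10000 UMIs of the spot + 1) of Cxcl9 (upper row) or Cxcl10 (lower row), on 1 colour scale from 0 to 4; red circles are the 63, 186, 67 and 129 spots with a Cxcr3 UMI. Cxcl9 is bright around the rim of the CC075F1 sections and dark over most of CC080F1 replicate 1, where Cxcl10 is present.

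Whether the ligands were higher where their receptor was found was asked by comparing Cxcr3-positive with Cxcr3-free spots of the same section. Cxcl9 stood at 328 and 486 CPM in Cxcr3-positive spots of CC075F1 against 314 and 289 CPM in the others, and in CC080F1 at 65.6 and 195 against 48.9 and 115 CPM. It was higher in Cxcr3-positive spots in 4 of 4 sections, 1.04, 1.68, 1.34 and 1.70 times. Cxcl10 was at 357 and 303 against 294 and 232 CPM in CC075F1, and at 184 and 403 against 194 and 305 CPM in CC080F1. It was higher in 3 of 4 sections, the exception being CC080F1 replicate 1 with a ratio of 0.949.

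In edgeR over the sums of these spots, Cxcl9 rose by a log2 fold change of 0.49 (SE 0.05, edgeR adjusted p = 1.70e-15) and Cxcl10 by 0.20 (SE 0.04, edgeR adjusted p = 0.00044). These 2 of 2 ligands stand beside 531 of 14943 genes called, or 3.55%, with 235, or 1.57%, higher and 296 lower. That split was 476 and 100 when scaled by library size alone and 264 and 147 with DESeq2's size factors. The calls rest on a spread that the fit shares over genes. With limma on the 4 section ratios, chosen after seeing the data, the values were 0.43 and 0.18 and neither passed (limma adjusted p = 0.0689 and 0.376), and DESeq2 kept Cxcl9 (adjusted p = 0.000423) but not Cxcl10 (0.332). Without CC080F1 replicate 2 the Cxcl10 value was 0.06 and no longer passed (edgeR adjusted p = 0.986). Cxcr3-positive spots were deeper in 3 of 4 sections (medians 31032, 46285, 38181 and 36651 against 31158, 41552, 33602 and 34512 UMIs). Against Cxcr3-free spots matched in depth, Cxcl9 was higher by 0.57 (edgeR adjusted p = 1.44e-06) and Cxcl10 by 0.22 (edgeR adjusted p = 0.034).

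Around the receptor the Cxcl9 level was lower with each of the first 4 steps in replicate 2 of either strain. In CC075F1 replicate 2 Cxcl9 went from 486 CPM in the Cxcr3 spots through 381 at 1 step and 291 at 2 steps to 206 at 4 steps, and was 223 CPM at 5 steps and 321 in the 35 spots further away. In CC080F1 replicate 2 it went from 195 through 171 and 131 to 79.7 CPM at 4 steps. In CC080F1 replicate 1 it went from 65.6 to 46.8 CPM over the same distance, and in CC075F1 replicate 1 from 328 to 304 CPM. Cxcl10 was lower at 4 steps than in the Cxcr3 spots in 3 of 4 sections, at 282 against 357 and 188 against 303 CPM in CC075F1 and 261 against 403 CPM in CC080F1 replicate 2, and higher in CC080F1 replicate 1, at 206 against 184 CPM.

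**Figure D5:**
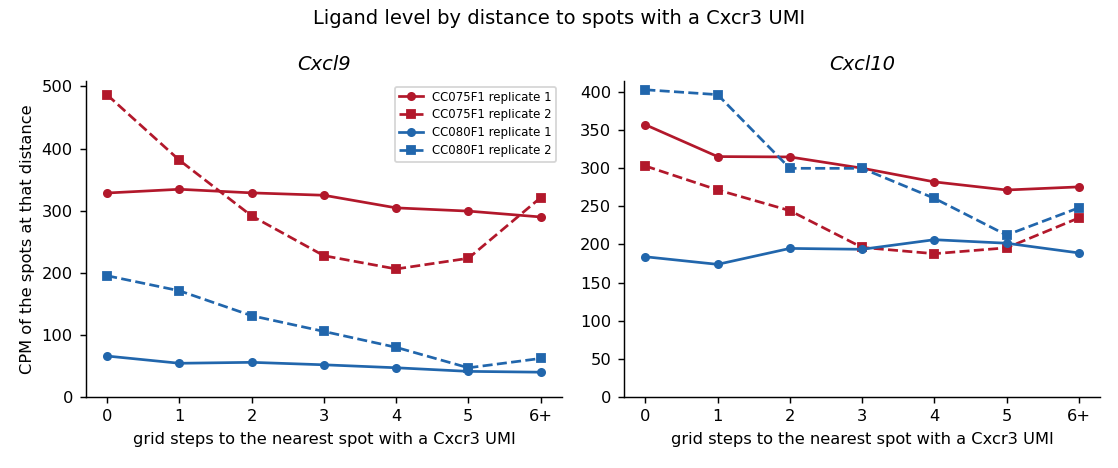
CPM of Cxcl9 and Cxcl10 (vertical axes, from 0) by the number of grid steps to the nearest spot with a Cxcr3 UMI, where 0 is that spot, for each section. Cxcl9 goes from 486 to 206 CPM over 4 steps in CC075F1 replicate 2 and from 195 to 79.7 CPM in CC080F1 replicate 2; it then rises to 321 CPM in the most distant 35 spots of CC075F1 replicate 2.

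Read from the ligand's side, the set of spots richest in Cxcl9 held 1.96 and 4.0 times the Cxcr3 level of the poorest set in CC075F1, and 2.77 and 2.27 times in CC080F1. These ratios rest on 11, 26, 8 and 25 Cxcr3 UMIs in the poorest sets. The depth-stratified odds ratio of Cxcl9 and Cxcr3 in a spot was above 1 in 4 of 4 sections, at 1.34 and 3.23 in CC075F1 and 1.43 and 1.45 in CC080F1. That of Cxcl10 and Cxcr3 was 1.63 and 1.51 in CC075F1 and 0.721 and 1.26 in CC080F1. The strains did not overlap for Cxcl10 (exact permutation p = 0.333, the smallest possible) and overlapped for Cxcl9. Since nearly every CC075F1 spot held both ligands, only 1 and 2 of its Cxcr3 spots lacked Cxcl9 and 1 and 4 lacked Cxcl10. With 2 or more UMIs of the ligand the strains overlapped for Cxcl10 too, with 0.972 and 2.07 for CC075F1 against 0.978 and 1.17 for CC080F1. Without shallow spots and those of skin, muscle or fat the Cxcl9 and Cxcr3 odds ratio of CC075F1 replicate 1 was 0.851.

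Other genes that rose in Cxcr3-positive spots included 3 of 15 T and NK cell markers, Trbc2 (0.64), Trac (0.61) and Klrd1 (0.47), and 15 of 15 had a positive value, with Cd3e at 0.73. Of 15 inducers tested, Irf7 (0.24), an interferon response factor, was among those that rose, with Ifng at 0.64 and Tnf at 0.18. Ccr7 (1.39), a receptor of migrating dendritic cells and naive T cells, rose among dendritic cell genes, with Flt3 at 1.09, Clec9a at 0.57 and Xcr1 at 0.46. Ly6c2 (0.61) rose among macrophage and monocyte genes, with Adgre1 at 0.17, Ccr2 at 0.15 and Itgam at -0.12. Cxcl12 (0.57) and Cxcl1 (0.47) rose among CXC genes, with Cxcl3 at -4.90 and Cxcl5 at 1.5, while Dpp4 stood at 1.27 and Ackr3 at 0.02. Of 5 fibroblast markers 4 rose and 1 fell, 2 of 4 endothelial markers rose and 2 of 4 erythrocyte markers fell, and their part in the ligand difference was not tested.

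The ligand difference between Cxcr3-positive and Cxcr3-free spots was not called different between the strains. The interaction term was -0.24 for Cxcl9 (SE 0.10, edgeR adjusted p = 0.982, unadjusted p = 0.0156) and 0.08 for Cxcl10 (SE 0.08, edgeR adjusted p = 1). Thus 0 of 2 ligands passed, 1 had an unadjusted p under 0.05 and DESeq2 called 0, where edgeR called 32 of 14943 genes, or 0.214%. The Cxcl9 term depended on CC075F1 replicate 2, without which it was -0.62 and passed (edgeR adjusted p = 4.95e-08), and against depth-matched spots it was 0.06. No gene of the pathway lists passed in edgeR, and 0 to 4 of each had an unadjusted p under 0.05, while 3 of 5 fibroblast and 2 of 5 skeletal muscle markers passed. The largest terms were Tnf -0.31, Irf9 -0.17, Ifnar1 0.17 and Ifnar2 -0.15 among inducers, Dpp4 -0.54 and Ackr3 -0.02 among ligand removal, and Cd3e -0.77, Trac -0.60, Cd3g -0.52 and Trbc2 -0.40 among T and NK cell genes. They were Ly6c2 0.37, Ccr2 -0.18, Apoe 0.17 and Adgre1 0.12 among macrophage genes, Flt3 1.00, Xcr1 -0.95, Cd209a -0.85 and Ccr7 0.45 among dendritic cell genes, and Cxcl3 -5.58, Ppbp -2.76, Cxcl2 -1.92 and Cxcr5 0.94 among CXC genes.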

How the data were processed

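Spatial gene expression was measured in 4 Visium sections of MC38 tumors, 2 per strain. The deposited counts are whole UMIs per gene and spot, which the authors made with Space Ranger 1.3.1 against GRCm38 and GENCODE vM23. The submitters' processing notes also name Seurat 5.0.1, whose normalised values were not used here. Only spots under tissue were kept.

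Counts were summed over the spots of a section, or over its edge and interior or Cxcr3-positive and Cxcr3-free spots, and tested with edgeR 4.0.16 (R 4.3.3), using TMM scaling, quasi-likelihood tests, Benjamini-Hochberg adjustment over all genes tested, and a filter on low counts by filterByExpr. Fits within sections had section as a term and the strain interaction in the same model. Section values were compared by exact two-sided permutation (Python 3.11.15, scipy 1.17.1). DESeq2 1.42.0 and limma 3.58.1 were alternatives, as were scaling, filter, edge width, depth, markers, the replicate block and leaving out each section. The edgeR fits were run on simulated counts with known changes, drawn independently at the same dispersion for all genes and without shared tumor effects. That checks the code and does not give error rates under the spread of these sections. A count of 0 allowed up to 0.0205 to 0.0363 CPM, depending on the section.

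The members and lists were chosen with earlier results of these data known. The named genes were the members, the genes of each pathway list past an adjusted p of 0.05 (at most 5, by size of change, and filled up to 4 by the largest changes), and the 5 genes most like each member by mean Pearson r of log2(UMIs per 10000 + 1). A gene that the rule names is not reported here. Skin, muscle and fat, fibroblast and endothelial lists were read as counts. The plan named a share over 3 ligands, which became Cxcl9 and Cxcl10, as Cxcl11 was not analysed here. Replicate numbers are those of the labels.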

Additional observations from a re-analysis of the deposited data

Results flagged for a closer look

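With an edge of 3 steps, the Cxcl9 edge effect had opposite signs in the strains. The edge was above the interior in both CC075F1 sections (1.66 and 1.47 times) and below it in both CC080F1 sections (0.791 and 0.930 times). The test of this difference gave a log2 value of 0.70 (SE 0.15, edgeR unadjusted p = 0.00128) and an edgeR adjusted p of 0.163, so it did not pass over all genes. With an edge of 5 steps CC080F1 replicate 2 turned to 1.17 times, CC080F1 replicate 1 stood at 0.883 times and CC075F1 at 1.84 and 1.71 times.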

How the results depend on the processing

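Of 172 values under alternatives to the settings used for 28 results, 134 matched the value reported, and of 112 values that left out a section, 82 did. A fold change matched with the same direction and side of the threshold, a count of genes within 1.5 times, and a ratio or difference of spot values with the same direction alone. Scaling by library size alone put the all-gene median of the log2 strain difference at -0.31. The limits are 2 sections a strain, few Cxcr3 UMIs, and fits that borrow the spread from other genes. The cause of each change below was not tested.

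Between strains, the genes called were 40 with library size alone, 480 without the filter on low counts and 194 with DESeq2, and Cxcl9 then passed, at 1.88 (edgeR adjusted p = 0.0384), 2.18 (5.06e-09) and 2.20 (7.33e-05). With the replicate block 287 genes were called and Cxcl9 stood at 2.32 (edgeR adjusted p = 0.000405). The labels give a replicate number and no shared animal or day, and there were only 2 pairs. Same-numbered sections deviated with r = 0.17 over 15572 genes. Whether they share more than a number could not be told from this. Leaving out a section gave 11 to 207 calls, 1.65 to 3.05 for Cxcl9, 0.03 to 0.84 for Cxcl10 and -0.29 to 1.00 for Cxcr3.

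At the edge, 1999 genes were called without the filter, Cxcl9 was 0.36 with an edge of 5 steps, and Cxcl10 was 0.052 by library size alone, 0.14 with 5 steps, 0.015 with the rim of the grid as off tissue and 0.0034 without shallow, skin, muscle or fat spots. Leaving out a section gave 36 to 1326 calls, 0.05 to 0.22 for Cxcl9, -0.21 to 0.16 for Cxcl10 and -0.21 to 0.61 for Cxcr3. For the strain difference of the edge effect, 532 genes were called without the filter, 71 by DESeq2, 49 without shallow, skin, muscle or fat spots and 0 by limma on section ratios, an alternative chosen after seeing the data, with 1180 at an unadjusted p under 0.05. Cxcl9 passed at 0.86 by library size alone (edgeR adjusted p = 0.0399), 0.69 without the filter (0.000166) and 0.72 by DESeq2 (0.00455), and Cxcr3 turned to -0.038 with 5 steps and -0.080 by limma. Leaving out a section gave 1 to 501 calls, 0.52 to 0.88 for Cxcl9, 0.0040 to 0.73 for Cxcl10 and -0.96 to 0.67 for Cxcr3.

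In Cxcr3-positive spots, DESeq2 called 50 genes, depth-matched spots gave 223 and limma 41. Cxcl9 was 0.43 by limma, and Cxcl10 was 0.22 by DESeq2 and 0.18 by limma, none past the threshold. Leaving out a section gave 63 to 1195 calls, 0.31 to 0.61 for Cxcl9 and 0.063 to 0.29 for Cxcl10. For the strain difference of this effect, 52 genes were called by library size alone, 14 with depth-matched spots, 0 by DESeq2 (80 at an unadjusted p under 0.05) and 0 by limma (419), and Cxcl9 was 0.064 with depth-matched spots. Leaving out a section gave 7 to 82 calls, -0.62 to -0.018 for Cxcl9 and -0.11 to 0.34 for Cxcl10.

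As a ratio of strain means, the Cxcr3 spot share of 1.24 became 0.871 with 2 or more UMIs and 0.836 after thinning to 5000 UMIs. The Cxcl9 and Cxcr3 ratio of odds ratios became 0.993 without shallow, skin, muscle or fat spots, where that of Cxcl10 and Cxcr3 could not be computed. Cxcl10 per macrophage UMI, 0.778, became 1.02 over Adgre1 and Cd68 alone. Leaving out a section gave spot share ratios of 1.29 to 1.61 for Cxcl9, 1.00 to 1.02 for Cxcl10 and 0.719 to 1.76 for Cxcr3, a Cxcl9 share difference of 26.1 to 33.5 points, and odds ratio quotients of 1.87 to 2.48 for the ligands, 0.931 to 2.24 for Cxcl9 and Cxcr3 and 1.25 to 2.18 for Cxcl10 and Cxcr3. Marker-based ratios were 1.97 to 4.50 for Cxcl9, 0.646 to 0.979 for Cxcl10 and 0.313 to 0.565 for Cxcr3.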
